A study of Sus scrofa with 12 samples.

Results

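Wide m6A peaks, those that stretch over more than 10000 bp of the genome, are described here in pig intestinal epithelial cells. They were taken from a table of 25055 distinct merged peaks as those listed under 1 gene, not as lncRNA, whose end lay more than 10000 bp past the start, whatever their annotated position. The rule found 1127 wide peaks on 1078 genes, which is 4.50% of all peaks and 5.41% of the peaks listed under 1 gene that is no lncRNA. The other 19700 of those, called narrower peaks, served for comparison. A further 232 peaks over 10000 bp were left out, 222 listed under several genes and 10 lncRNA peaks.

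N6-methyladenosine (m6A) is the most abundant internal modification of mRNA. It is set mainly within spliced exonic sequence, often in long internal exons and around stop codons, and reader proteins of the YTH family bind it. In MeRIP-seq, RNA is fragmented and an antibody enriches fragments that carry the mark, while an input part is sequenced without enrichment. A peak found on spliced mRNA but written in genome coordinates runs from its first to its last exonic base, so a short stretch of mRNA across a long intron becomes a wide peak. Long first introns are common in vertebrate genes.

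IPEC-J2 cells, an epithelial line of pig jejunum, were kept for 24 h with 0 µM OAA (CON) or 25 µM OAA (OAA). OAA is the labels' abbreviation, and the series title speaks of 2-oxindole-3-acetic acid and lipid accumulation. The labels number 3 replicates in each treatment for each kind of library, 12 libraries in 4 groups. A culture here means the labelled input and the labelled IP library of 1 number, a match that the labels do not state and on which every value per culture rests. They do not say either that cultures were separate, so p-values measure only the spread of these samples, and that spread may be technical. The expression table held 8 of 10 enterocyte markers. Of these, 3 reached 1 FPKM (fragments scaled to transcript length and library depth), with KRT8, an epithelial keratin, at 396 FPKM. All 4 fibroblast markers and all 4 leukocyte markers stayed below 1 FPKM. All 3 endothelium markers in the table passed it, with CDH5 highest at 3.79 FPKM, as did 1 of 4 goblet cell markers.

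The labels and the library codes disagree on which libraries are the antibody part. The deposited log2 ratios run from labelled input to labelled IP, and the libraries labelled input hold 16491095 to 23010413 reads in peaks against 3709352 to 4607452 in those labelled IP. The peak ratio used here is labelled input over labelled IP, on a log2 scale, the direction of the authors' deposited table. If the labels hold, its sign turns as a measure of enrichment. The scaling sets the typical peak near 0, so a value above 0 means a larger ratio than in the typical peak. The deposited log2 ratios in CON are not centred on 0, with a median of 4.01 in wide peaks and 3.97 in all peaks. A ratio below 0 here therefore does not mean that the deposited ratio lies below 0. CPM is a count per 1000000 reads that a library had in peaks, after TMM scaling, and an SE is that of a fitted log2 value. Intervals of count ratios cover counting error only.

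Wide peaks ran from 10021 to 251251 bp, with a median of 21285 bp against 275 bp for narrower peaks. Of the 1127, 532 spanned up to 20000 bp, 418 more than 20000 and up to 50000 bp, 145 more than 50000 and up to 100000 bp, and 32 more than 100000 bp. There was no gap at the limit. The narrowest wide peaks were those of LGMN and PDE3A at 10021 bp and MANBAL at 10031 bp. Just outside lay peaks of ZBTB49 at 9992 bp, MRPL48 at 9980 bp and PHF11 at 9976 bp.

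**Figure D1:**
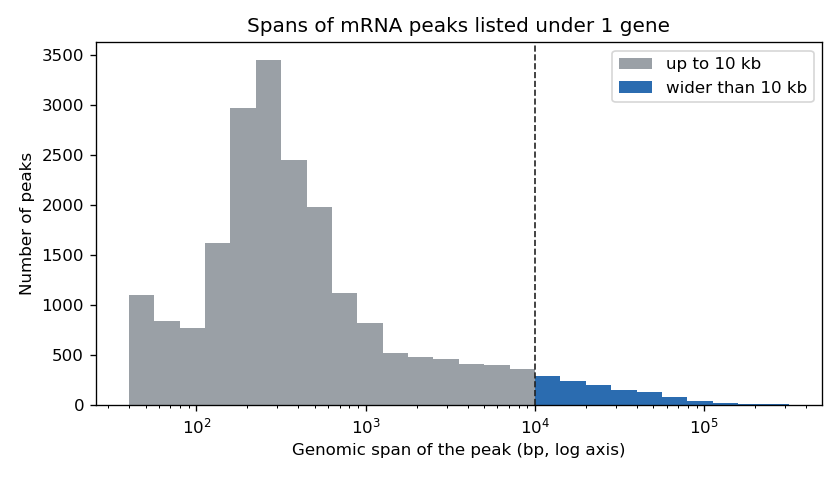
Number of mRNA peaks listed under 1 gene by genomic span in bp, on a log axis. Grey bars are the 19700 peaks up to 10 kb, blue bars the 1127 wide peaks, and the dashed line is the limit of 10000 bp, across which the counts pass without a gap.

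Of narrower peaks, 78.0% had a span that was a multiple of 25 bp. Of wide peaks, 42 (3.73%) had. This share was not taken for the narrower peaks nearest the limit of 10000 bp, so whether it changes at the limit was not tested. All wide peaks carried an exonic annotation such as a UTR, coding sequence or start codon. So did all narrower peaks, so the annotation does not set wide peaks apart. The share of spans in steps of 25 bp is the value that bears on the working name of intron-spanning peaks, since exon coordinates were not used here. The median over peaks of reads per kilobase of genomic span, over the 12 libraries, was 63.0 in wide and 4929.6 in narrower peaks. In reads per peak they were close, with a median of 563 summed counts in the CON libraries labelled input against 529 in narrower peaks. In the CON libraries labelled IP the medians were 167 and 159.

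No wide peak overlapped another listed peak. In all, 972 (86.2%) lay inside the transcript they were listed with, against 96.5% of narrower peaks. Beyond its 5′ end reached 142 wide peaks, 77 of them by more than 1000 bp, and 13 reached beyond its 3′ end. In 71 wide peaks under 10% of the span lay inside the listed transcript. The transcripts themselves were long, with a median of 74104 bp over genes with a wide peak against 28276 bp over genes with narrower peaks. Among wide peaks inside the transcript, the median peak spanned 32.5% of it, against 0.959% for narrower peaks. A wide peak began within 100 bp of the transcript's 5′ end in 360 cases (31.9%), against 13.1% of narrower peaks.

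The 5′ end of the mRNA was the usual place. Wide peaks with the start codon numbered 621 (55.1%, against 20.2% of narrower peaks), and 145 lay in 5′ UTR alone (12.9% against 7.08%). Coding sequence alone held 281 (24.9% against 26.3%). The stop codon, where the mark is best known, was covered by 52 wide peaks (4.61% against 26.3%), and 3′ UTR alone held 13 (1.15% against 19.3%). A further 15 covered both start and stop codon. Position and width were read from the same annotation, so these shares describe the peaks and were not tested.

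The widest peak belonged to EXT1, a glycosyltransferase that builds heparan sulfate chains. It lay at chr4:20646234-20897484 in the coordinates of the deposited table, whose genome build is not given in the sources used here, and covered 86.7% of the listed transcript, annotated as coding sequence. Its levels were 1337, 1320 and 1339 CPM labelled input in CON against 280, 286 and 289 CPM labelled IP. All 3 labelled input libraries were far above all 3 labelled IP libraries, with a log2 ratio of 2.22 (SE 0.06, n = 3 per group, edgeR adjusted p = 5.26e-24). MAML2, a coactivator of Notch, had a peak of 249693 bp over the start codon (chr9:28121387-28371079) at 99.9, 99.9 and 90.9 CPM against 24.9, 30.2 and 26.4 CPM, a log2 ratio of 1.83 (SE 0.11).

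The other 3 of the 5 widest peaks were not called in CON. CFAP299, a cilia and flagella associated protein, had 198394 bp and a log2 ratio of 0.08 (SE 0.29), with 4.73, 6.94 and 5.60 CPM against 6.49, 5.40 and 4.35 CPM. These groups overlapped. IGF1R, a receptor of insulin-like growth factors, had 185648 bp and a log2 ratio of 0.13 (SE 0.11), with overlapping values of 47.2, 60.2 and 59.5 CPM against 56.2, 46.2 and 50.3 CPM. The peak of DACH1, a transcriptional regulator, spanned 182563 bp and held 34 labelled input reads in CON and 0 labelled IP reads, too few to be tested.

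**Figure D2:**
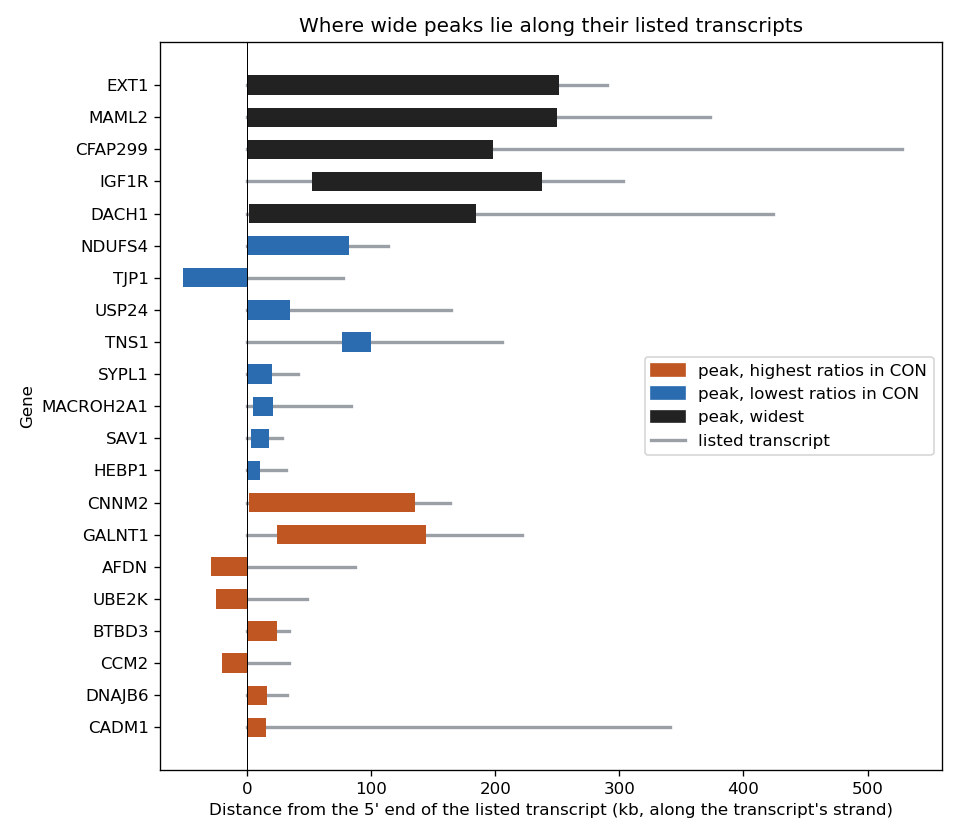
Position of 21 wide peaks along their listed transcripts, in kb from the transcript's 5′ end on its own strand. Grey lines are listed transcripts, bars are peaks with the highest ratios in CON (orange), the lowest (blue) and the widest (black), and the bars of TJP1, AFDN, UBE2K and CCM2 lie almost wholly before the 5′ end.

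Peak ratios were first compared within the untreated cells. Of 1101 wide peaks tested in CON, 400 had a higher and 358 a lower ratio than the typical peak at an adjusted p under 0.05 (edgeR quasi-likelihood test, Benjamini-Hochberg adjustment over all peaks), 36.3% and 32.5%. Over all 24145 peaks tested, 68.1% were called, 33.9% higher and 34.2% lower. The share of wide peaks called was thus near that of all peaks. Their median log2 ratio was 0.10 against 0.03 for all peaks, with quartiles from -0.78 to 1.14 and from -0.89 to 1.06. The groups did not overlap in 797 of them (72.4%, against 71.9% of all peaks). In OAA, 412 were higher and 349 lower, beside 68.5% called over all peaks (34.1% higher, 34.4% lower), and the median was 0.13 against 0.03. Called higher in both treatments were 367, called lower in both 312, and called in opposite directions 0.

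**Figure D3:**
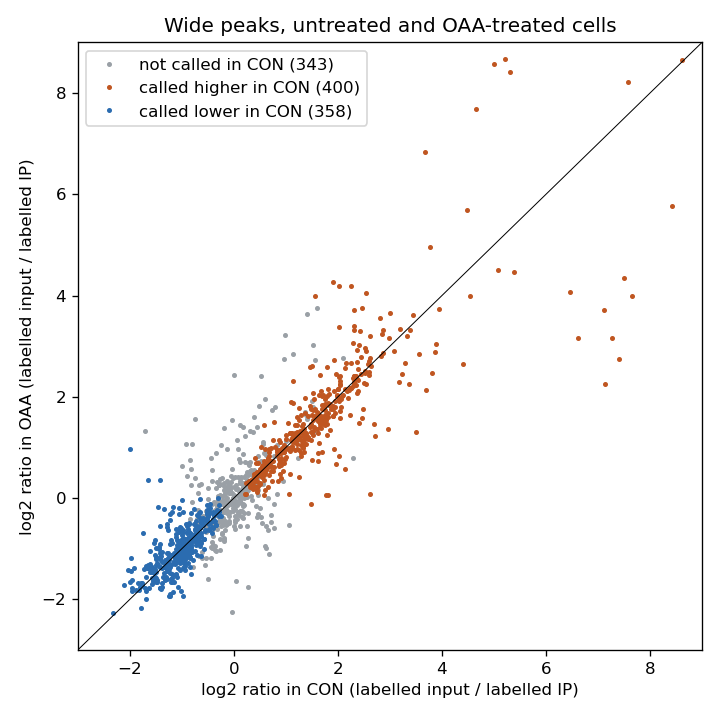
Log2 peak ratio (labelled input over labelled IP) of the 1101 tested wide peaks in CON (horizontal) and in OAA (vertical), 1 dot per peak, coloured by the call in CON, with the line of equal ratios. Most dots lie along the line, and those above about 4 rest on few reads labelled IP.

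The ratio of wide peaks varied with position. In CON the median log2 ratio was 0.59 for 5′ UTR alone, with 57 higher and 23 lower of 132 tested. It was -0.14 over the start codon, with 175 higher and 219 lower of 612. Coding sequence alone gave 0.27 (122 higher, 92 lower of 278) and the stop codon 0.60 (32 higher, 15 lower of 51). The few in 3′ UTR alone gave -0.18 (3 higher, 6 lower of 13), and those with start and stop codon 0.96 (11 higher, 3 lower of 15). Narrower peaks stood, in that order of positions, at 0.48, -0.16, -0.06, 0.32, -0.26 and 0.90.

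In coding sequence wide and narrower peaks lay apart by more than the spread over cultures, a gap given here without a test because both share their libraries. The median of wide coding peaks was 0.26 ± 0.02 (SD, n = 3 CON cultures), and that of narrower ones -0.05 ± 0.01. In the OAA cultures they were 0.27 ± 0.04 and -0.05 ± 0.01. At the stop codon the CON medians were 0.60 ± 0.18 and 0.32 ± 0.02. Over all positions the gap was smaller, 0.08 ± 0.07 for wide and 0.01 ± 0.01 for narrower peaks in CON. Read depth differed with position and width too: wide coding peaks had a median of 1193 summed counts in the CON libraries labelled input and narrower ones 545. The part of depth in this difference was not tested.

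**Figure D4:**
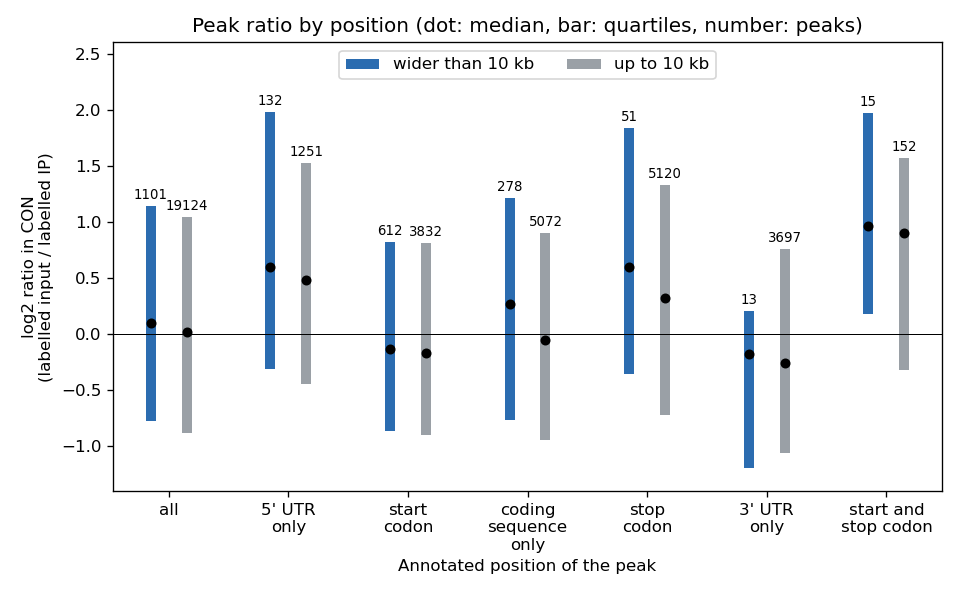
Log2 peak ratio in CON of wide (blue) and narrower (grey) peaks by annotated position. Dots are medians, bars run between the quartiles and numbers count tested peaks, and both kinds of peak have their lower medians in 3′ UTR and start codon peaks and their highest in peaks over both codons.

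By width, the median log2 ratio in CON was -0.05 between 10000 and 20000 bp, 0.12 up to 50000 bp, 0.37 up to 100000 bp and 0.59 above (31 peaks tested). In OAA the same classes gave 0.04, 0.13, 0.35 and 0.28, so the widest class lay below the one before it. Over the 1101 tested wide peaks, the Spearman correlation of width and ratio was 0.09 in CON and 0.08 in OAA, a description over peaks that share all their libraries. Narrower peaks in CON gave -0.83 up to 100 bp, -0.32 up to 300 bp, 0.73 up to 1000 bp, 0.06 up to 3000 bp and -0.10 up to 10000 bp.

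Wide peaks could also be set against other peaks of their own gene. Narrower peaks lay in the same gene for 874 wide peaks. The narrower ones were pooled by gene over all positions, so a difference from them mixes position with width. The ratio of the wide peak minus that of the gene's pooled narrower peaks had a median of 0.15 to 0.31 (log2) in each of the 6 cultures. It was above 0 in all 6 cultures for 348 (39.8%) and below 0 in all 6 for 249 (28.5%). No such count was made for narrower peaks, so whether these shares are particular to wide peaks was not tested. The 9 with start and stop codon had medians of 1.12 to 1.98 over the cultures, wide peaks in 5′ UTR alone 0.57 to 0.91 (115 peaks), and those of coding sequence alone ran from -0.13 to 0.01 (247 peaks). Wide peaks of 1 gene did not always go together. Of 46 genes with several wide peaks, 44 had all of them tested. Peaks called in opposite directions in CON were found in 13 genes, while 7 had all of them higher and 5 all lower. Over all tested wide peaks 36.3% were called higher and 32.5% lower. Whether peaks of 1 gene differ in this from unrelated peaks was not tested.

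CRK, an adaptor protein of tyrosine kinase signalling, shows such a split. Its peak at chr12:47615370-47645259 had 30.1, 25.9 and 27.2 CPM labelled input in CON against 90.2, 83.5 and 98.2 CPM labelled IP, a log2 ratio of -1.71 (SE 0.12). Its peak at chr12:47673920-47685616 had 343, 371 and 377 CPM against 179, 168 and 169 CPM, a log2 ratio of 1.08 (SE 0.07). Neither pair of groups overlapped. The 2 peaks were listed with different transcripts that do not overlap each other. In FBXL5, the F-box protein that targets an iron regulatory protein, the peak in coding sequence had a log2 ratio of 2.14 (SE 0.07), and the start codon peak -0.36 (SE 0.36), which did not pass.

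TRIP12, a ubiquitin ligase, held 3 wide peaks along its 5′ part. Coding sequence gave -0.76 (SE 0.11), the start codon 0.13 (SE 0.35), and the 5′ UTR peak held 119 reads labelled input and 0 labelled IP in CON. RAD50, a subunit of the DNA double-strand break repair complex, also had 3: -0.26 (SE 0.17) in 5′ UTR, 1.39 (SE 0.16) at the start codon and 2.30 (SE 0.58) in coding sequence, where 215 reads faced 11. The 3 peaks listed under UGT1A3, a glucuronosyltransferase, had ratios of 0.38, -0.73 and 1.21, but this gene shares exons and near-identical sequence with its neighbours, so their assignment is uncertain.

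Among called peaks whose higher group reached 5 CPM and whose groups did not overlap, the highest ratios belonged mostly to 5′ peaks with few reads labelled IP. For CCM2, a scaffold protein of junction and kinase signalling, the peak at chr18:50429591-50450101 held 23.0, 33.6 and 29.9 CPM labelled input in CON and 0.224, 0 and 0 CPM labelled IP. That is 1575 reads against 1, a scaled ratio of 386 with an exact 95% interval from 69.2 to 15270. In OAA there were 1870 reads against 9, a scaled ratio of 55.7. UBE2K, a ubiquitin-conjugating enzyme, had 1574 reads against 9 in CON, a scaled ratio of 42.9 (interval 22.5 to 94.0). AFDN, which ties nectins to actin at adherens junctions, had 438 against 3 (35.8, interval 12.2 to 174). The peaks of these 3 genes lay largely before the 5′ end of the listed transcript.

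The same group held DNAJB6, a co-chaperone, with 500 reads against 5 (24.5, interval 10.4 to 75.9). CADM1, an adhesion molecule of the immunoglobulin type, had 467 against 5 (22.9, interval 9.75 to 70.9), and BTBD3 had 284 against 5 (13.9, interval 5.90 to 43.2). GALNT1, which starts O-glycosylation of mucins, rests on more reads. Its start codon peak of 119998 bp (chr6:119295972-119415969) had 42.2, 54.3 and 52.1 CPM against 1.79, 4.60 and 3.14 CPM. The groups were far apart, and the log2 ratio was 3.94 (SE 0.26, edgeR adjusted p = 1.06e-14). CNNM2, a protein of magnesium transport, had 15.4, 12.8 and 14.1 CPM against 1.79, 0.600 and 1.21 CPM in a coding peak of 133874 bp, a log2 ratio of 3.57 (SE 0.33), while the whole gene stood at 0.293 ± 0.0749 FPKM (SD, n = 3).

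The lowest ratios, under the same limit of 5 CPM in the higher group, had ample reads on both sides. SYPL1, a vesicle membrane protein related to synaptophysin, had 11.5, 7.82 and 7.63 CPM labelled input in CON and 49.7, 41.8 and 43.0 CPM labelled IP over a start codon peak (chr9:105965164-105985141). Its log2 ratio was -2.32 (SE 0.17, n = 3, edgeR adjusted p = 1.24e-13). NDUFS4, a subunit of respiratory complex I, had 8.60, 8.22 and 7.53 CPM against 34.5, 34.0 and 37.0 CPM over 82196 bp that held 72.5% of its transcript, a log2 ratio of -2.11 (SE 0.16). In both genes every library labelled input lay below every library labelled IP in scaled CPM. In unscaled counts the groups overlapped, with 502 reads labelled input against 609 labelled IP in CON for SYPL1 and 449 against 477 for NDUFS4. The deposited log2 ratios in CON were above 0, at 1.53 and 1.76.

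TJP1, the tight junction scaffold ZO-1, had 6.44, 7.82 and 5.41 CPM against 29.3, 25.6 and 25.4 CPM in a 5′ UTR peak, a log2 ratio of -2.04 (SE 0.18). The TJP1 peak lay largely before the 5′ end of the listed transcript. SAV1, the scaffold of the Hippo kinases, stood at -1.99 (SE 0.18), MACROH2A1, a histone H2A variant, at -1.98 (SE 0.23), and TNS1, a focal adhesion protein, at -1.98 (SE 0.28). HEBP1, a heme-binding protein, stood at -1.96 (SE 0.16) and USP24, a deubiquitinase, at -1.95 (SE 0.20). The 8 remained called lower in OAA, from -2.26 for SYPL1 to -1.19 for TNS1.

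**Figure D5:**
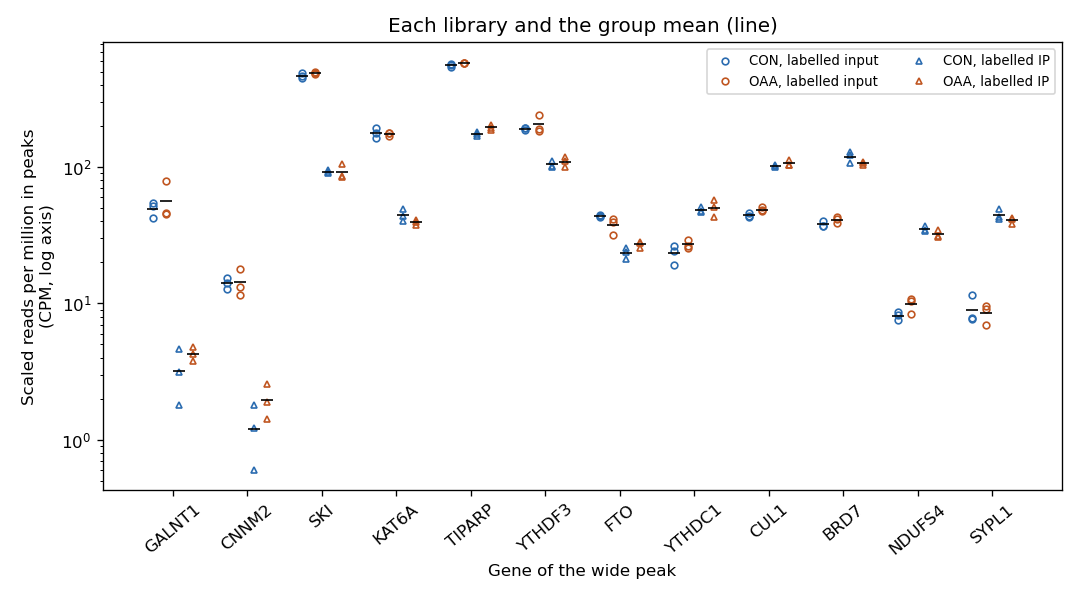
Scaled CPM, on a log axis, of 12 wide peaks in each of the 12 libraries, with circles for libraries labelled input, triangles for libraries labelled IP, blue for CON, orange for OAA and a line at each group mean. CON and OAA symbols of one kind sit side by side, while the 2 kinds of library lie apart, most of all in GALNT1.

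The most read wide peak lay under ENSSSCG00000039222, a gene without a symbol that the deposited table describes as brain acid soluble protein 1. It covered 98.6% of its listed transcript, start and stop codon included (chr16:6384350-6439716). It had 3818, 3801 and 3856 CPM labelled input and 830, 799 and 801 CPM labelled IP in CON, a log2 ratio of 2.24 (SE 0.05). EMILIN2, an extracellular matrix glycoprotein, came next with 1657, 1824 and 1895 CPM against 930, 916 and 928 CPM and 0.95 (SE 0.06). BCL2L1, the inhibitor of apoptosis BCL-X, had 1062, 1122 and 1144 CPM against 485, 474 and 472 CPM and 1.22 (SE 0.06) in a peak over both codons. In these 3 peaks, as in FBXL5 with 1148, 1153 and 1109 CPM against 275, 260 and 238 CPM, the groups did not overlap.

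Of 21 genes for m6A writers, readers and erasers, 19 had a peak of their own and 3 had a wide one. Of these 3, 2 were called higher and 1 lower in CON. Over all genes with a peak of their own, 1078 had a wide one and 7903 narrower ones alone. YTHDF3, a cytoplasmic reader, had 187, 193 and 195 CPM labelled input against 100.1, 112 and 102 CPM labelled IP at its stop codon, a log2 ratio of 0.87 (SE 0.09). YTHDC1, the nuclear reader, had 19.0, 26.6 and 24.4 CPM against 47.3, 47.6 and 50.8 CPM at its start codon, -1.06 (SE 0.14). FTO, a demethylase, had 43.1, 43.7 and 44.3 CPM against 21.1, 24.0 and 25.6 CPM in coding sequence, 0.89 (SE 0.13). YTHDF2, PSMD3, METTL3, METTL14 and ALKBH5 had no wide peak.

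The ubiquitin system was represented by ligases and deubiquitinases. Among 13 tested wide peaks of the ligase list, 5 were higher and 5 lower, with UBE3A at 0.56 (SE 0.09) and CUL1, the cullin of SCF ligases, at -1.20 (SE 0.09). Of 7 deubiquitinase peaks, 1 was higher and 4 were lower, with UCHL5, which works at the proteasome, at 0.44 (SE 0.20) and USP34 at -0.66 (SE 0.19). None of 36 proteasome subunit genes had a wide peak, and 27 had a peak of their own. Over all genes 1078 had a wide peak and 7903 narrower ones alone. The lists were drawn up with results of these data known, so their counts describe these libraries. Over all tested peaks the median log2 ratio in CON was 0.03, with 33.9% higher and 34.2% lower.

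Genes of lipid uptake, synthesis and storage had 10 wide peaks, 9 tested, with 3 higher and 4 lower (33.9% and 34.2% over all tested peaks). ACSL3, which activates fatty acids for lipid droplets, had 19.8, 15.8 and 18.01 CPM against 39.2, 46.0 and 43.8 CPM, -1.26 (SE 0.15). PPARG, the nuclear receptor of adipogenesis, had 30.6, 30.7 and 26.2 CPM against 49.0, 32.8 and 29.0 CPM. These groups overlapped, and the log2 ratio was -0.34 (SE 0.15, edgeR adjusted p = 0.0461). SREBF2, the regulator of cholesterol synthesis, had 0.45 (SE 0.31), which did not pass. The SREBF2 peak lay largely before the 5′ end of the listed transcript. TIPARP, a target gene of the aryl hydrocarbon receptor, had 548, 565 and 567 CPM against 182, 176 and 169 CPM, 1.67 (SE 0.07), and was the 1 gene of 21 in the aryl hydrocarbon receptor and NRF2 list with a wide peak.

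Of the 12 lists, that of chromatin modifiers had the most wide peaks, 25 on 20 of 83 genes. Of these peaks 12 were higher and 4 lower, with a median of 0.72. Over all tested peaks 33.9% were higher and 34.2% lower, with a median of 0.03. KAT6A, a histone acetyltransferase, stood at 2.00 (SE 0.10), ARID1A, a subunit of the BAF remodeller, at 1.76 (SE 0.12) and BRD7, of the PBAF remodeller, at -1.65 (SE 0.10). In TGF-beta, Wnt, Notch and Hippo signalling 10 of 19 were higher and 3 lower, with a median of 0.68. There SKI, a repressor of SMAD proteins, had 453, 465 and 492 CPM against 92.9, 90.7 and 94.8 CPM, 2.34 (SE 0.08). LATS2, a Hippo kinase, had 1.18 (SE 0.09), and AMOTL1, which binds YAP, 1.21 (SE 0.10).

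Receptor tyrosine kinase and MAPK genes had 7 higher and 4 lower of 14 (33.9% and 34.2% over all tested peaks), with a median of 0.67. MAP3K4 stood at 2.03 (SE 0.11) and PIK3C2A, a class II PI3-kinase, at 1.33 (SE 0.13). Vesicle traffic had 5 higher and 3 lower of 15, with RAB11FIP2 at 0.54 (SE 0.14) and PICALM, a clathrin adaptor, at -0.26 (SE 0.13), which did not pass. TBC1D14 at 0.30 (SE 0.12) lost its call under library size scaling, which gave -0.000452.

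Junction and adhesion genes had 3 higher and 7 lower of 14, with a median of -0.65. Over all tested peaks 33.9% were higher and 34.2% lower, with a median of 0.03. ITGA6, an integrin of hemidesmosomes, had 104, 113 and 110 CPM against 183, 201 and 210 CPM, -0.86 (SE 0.08). JUP, plakoglobin, had 20.7, 24.5 and 28.3 CPM against 50.6, 63.8 and 52.7 CPM, -1.19 (SE 0.14). Both had start codon peaks whose groups did not overlap, while ITGB5, with a coding peak, stood at -0.02 (SE 0.09) and was not called. Over all 612 tested wide start codon peaks, 175 were higher and 219 lower.

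OAA was then compared with CON. The change of the ratio, tested as an interaction over the 12 libraries, was called in 0 of 1101 wide peaks by edgeR (background 0.0% of all peaks), with 49 (4.45%) at an unadjusted p under 0.05 against 4.46% of all peaks. DESeq2 called 0, with 59 at an unadjusted p under 0.05. The lowest edgeR adjusted p was 0.974, and the median change was 0.00. The typical 95% interval of a single peak, without adjustment, reached 0.62 on either side on the log2 scale. Smaller changes were not detectable in a typical wide peak. After adjustment over all peaks, changes larger than this could go uncalled too. In the authors' deposited table, 33 wide peaks (2.93%) had a p-value under 0.05, against 2.69% of all peaks, and the lowest adjusted p was 0.9998.

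RIC8B, a chaperone of G protein alpha subunits, had the smallest p without passing. Its coding peak had 43.9, 46.8 and 45.0 CPM labelled input in CON and 47.1, 46.6 and 48.2 CPM in OAA. Its labelled IP levels were 9.85, 10.6 and 6.77 CPM in CON and 4.75, 3.66 and 5.00 CPM in OAA. The labelled IP groups did not overlap, and the change of the ratio was 1.10 (SE 0.26, unadjusted p = 0.000173, edgeR adjusted p = 0.974).

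Next came GALNT11, another O-glycosylation enzyme, with a change of 2.98 (SE 0.84) on 29 reads against 29 in CON and 89 against 12 in OAA. HECTD4, of the HECT domain family, had 0.86 (SE 0.29), BARX2, a homeobox factor, -0.67 (SE 0.23), and NEURL1B, a ligase of Notch ligands, -2.02 (SE 0.71). All 4 had an adjusted p of 0.999. For FTO the change was -0.42 (SE 0.19, unadjusted p = 0.0339, edgeR adjusted p = 0.999), with 39.5, 41.7 and 31.9 CPM labelled input and 25.5, 28.5 and 27.7 CPM labelled IP in OAA.

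In the libraries labelled input, 0 of 1126 wide peaks were called for OAA against CON by edgeR (background 0.0%), 62 (5.51%) had an unadjusted p under 0.05 against 5.2% of all peaks, and DESeq2 called 0 with 56. The groups did not overlap in 122 (10.8%, against 11.1% of all peaks). The smallest p values belonged to TMEM38B, an ion channel of the endoplasmic reticulum, with 89 reads over the 3 CON libraries and 19 over the OAA libraries. SH3BP5, an exchange factor of RAB11, followed with 252 and 434 reads. DNAL1, a dynein light chain, had 150 and 53, BARX2 649 and 426, and ZC3H18, a nuclear RNA-processing factor, 984 and 1383 reads. All 5 had an edgeR adjusted p of 0.94.

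In the libraries labelled IP, 0 of 930 wide peaks were called by edgeR, while 0.00498% of all peaks were. At an unadjusted p under 0.05 were 30 (3.23%, against 3.88% of all peaks), DESeq2 called 0 with 18, and 76 (8.17%, against 9.45%) had groups that did not overlap. After RIC8B the smallest p values were those of NTN4, ZC3H12C, ITGA2 and ZFP64. NTN4, a netrin of the basement membrane, had 72.0, 77.3 and 85.3 CPM in CON and 99.3, 92.1 and 99.5 CPM in OAA, a log2 difference of 0.31 (SE 0.10). ZC3H12C, of the regnase family, differed by -0.46 (SE 0.16), ITGA2, a collagen receptor subunit, by -0.86 (SE 0.31), and ZFP64, a zinc finger factor, by -0.33 (SE 0.12). All 4 had an edgeR adjusted p of 0.998. The ZFP64 peak lay largely beyond the 3′ end of the listed transcript.

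Leaving out OAA replicate 3 brought 1 call, so a single library decided that count. The start codon peak of MGST3, a microsomal glutathione transferase, had 133, 133 and 144 CPM labelled IP in CON and 170, 183 and 133 CPM in OAA. Without OAA replicate 3 its log2 difference was 0.38 (SE 0.08, edgeR adjusted p = 0.00513), and with it 0.25 (edgeR adjusted p = 0.998). The third OAA library lay within the range of CON. Without that replicate 62 wide peaks (6.54%) had an unadjusted p under 0.05, against 8.71% of all peaks.

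Expression of the genes that carry wide peaks was read from FPKM, whose columns belong to the libraries labelled IP. Genes with a wide peak had a median of 17.5 FPKM in CON and genes with narrower peaks alone 9.88 FPKM. At least 1 FPKM was reached by 97.9% and 88.2%. Between treatments limma called 0 of 1055 tested genes (background 0.0%), with 26 (2.46%) at an unadjusted p under 0.05 against 3.31% of all genes, and 94 (8.91%, against 8.55%) had groups that did not overlap. That count of 26 moved with single libraries. Without OAA replicate 3 it was 192 (18.2%, against 16.5% of all genes), without OAA replicate 2 it was 10, and without CON replicate 1, 2 or 3 it was 15, 14 or 13, while limma called 0 each time. The smallest p belonged to AAMDC, with 2.36, 1.98 and 1.26 FPKM in CON and 1.11, 1.03 and 0.648 FPKM in OAA. PTPN13, a tyrosine phosphatase, had 98.5, 101.4 and 104.5 FPKM and 90.2, 91.5 and 93.2 FPKM. GALNT15 had 21.0 ± 1.92 FPKM in CON and 25.3 ± 1.78 FPKM in OAA (SD, n = 3), TRAF3IP2, an adaptor of interleukin-17 signalling, had 12.6 ± 0.0801 and 14.4 ± 0.0870 FPKM, and CNKSR3 5.46 ± 0.531 and 4.24 ± 0.653 FPKM. All 5 had a limma adjusted p of 1.0. In these bulk samples fewer cells and less RNA per cell cannot be told apart.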

How the data were processed

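Per the labels' protocols, RNA of IPEC-J2 cells was fragmented, divided into an input part and an m6A antibody part, and sequenced. Bowtie2 and HISAT2 were used, per the submitters' processing notes, with roles, versions and genome build not given in the sources used here. The deposited peak table holds read counts per library and merged peak, the authors' log2 ratio per treatment and their p-value for the treatment difference. FPKM were computed by the authors and deposited for the libraries labelled IP.

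Each distinct peak was used once. Counts of all peaks passing edgeR's default filter were fitted by the quasi-likelihood F test of edgeR 4.0.16 after TMM scaling, in R 4.3.3, with Benjamini-Hochberg adjustment and a threshold of 0.05. The ratios and their change used all 12 libraries in 4 groups, and each treatment comparison the 6 libraries of 1 kind. Genes that reached 1 FPKM in 3 or more libraries were compared on log2(FPKM + 1) by limma 3.58.1 with a trend. That scale understates changes of low genes. DESeq2 1.42.0 was an alternative, beside library size scaling, no filter, a replicate block, leaving out each culture, and other width limits. The scripts were tested on simulated data.

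Peaks are named by a rule: the 8 highest and 8 lowest called ratios in CON with at least 5 CPM, a symbol and no overlap; called peaks or the 5 smallest p per treatment comparison; the 5 widest and those at the width limit; genes with most wide peaks; up to 3 peaks with most reads per list over 12 gene lists; the 5 with most reads; and 6 fixed genes. Some items that the rule selects are not reported here. MGST3 was named after its values were seen. Members, lists and rule were chosen with earlier results of these data known. Symbols of 1021 wide peaks came from the reference table, 104 from the deposited one, and 2 had none. The 0-based starts of the table are given 1-based. Sequences were not used here.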

Additional observations from a re-analysis of the deposited data

How the results depend on the processing

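Over the alternatives run, the shares of wide peaks called higher in CON ran from 29.8% to 39.0% and those called lower from 27.7% to 39.2%. Library size scaling moved the median of all peaks from 0.03 to -0.28 in CON and from 0.03 to -0.24 in OAA, and the split of wide peaks in CON from 400 higher and 358 lower to 328 and 432. It gave ARHGAP35 -0.011 and TBC1D14 -0.000452 in CON and ITGB5 -0.269 in OAA, signs opposite to the TMM fit. Relative to all peaks the median of wide peaks was 0.0703 higher in CON and 0.0923 in OAA. It was 0.157 and 0.178 when only peaks over 20000 bp were taken, and 0.0529 and 0.0763 for those inside the listed transcript, an alternative chosen after seeing the data. Leaving out a culture gave 0.0111 to 0.108 in CON and 0.036 to 0.107 in OAA. The treatment comparisons called 0% of wide peaks in every alternative except labelled IP without OAA replicate 3, which called 0.105% (1 peak), when 50 of 20550 peaks were called in all. Whether the numbers pair libraries was not clear, with correlations of deviations from -0.03 to 0.12 between both libraries of a number, although 5 of 6 labelled input libraries correlated best with the labelled IP library of their own number. With a block per culture, 36.1% were higher and 32.4% lower in CON, and the change of the ratio was called in 0%. The comparisons within 1 kind of library used another block, by number, which pairs CON with OAA. The labels do not state that pairing either, and its correlations of deviations ran from -0.10 to 0.01. With that block 0% were called, and 18 wide peaks in the labelled IP libraries and 12 genes by FPKM had an unadjusted p under 0.05. Of alternatives for single named peaks, 4246 kept direction and call, 34 lost the call, 14 gained it and 3 turned sign. The cause of these shifts was not tested. Depth limits the ratio where few reads are labelled IP: 68 wide peaks had 5 or fewer in CON, 23 of them 0.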

Other observations

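Genes with a wide peak were also grouped by the pathway classes that the deposited table lists, a grouping that no comparison above used. Of 505 such genes with a class, 177 (35.0%) were listed under signal transduction, against 25.0% of 3331 annotated genes with narrower peaks alone. Cellular community, which holds junction and adhesion pathways, was listed for 14.9% against 8.56%, and cell motility for 6.34% against 3.03%. Energy metabolism was listed for 1.39% against 2.58%, and replication and repair for 1.58% against 3.03%. A gene can be in several classes, and these shares were not tested.

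Wide peaks were spread over all chromosomes in the table, with 91 on chromosome 1, 85 on chromosome 6 and 16 on chromosome X. They took 5.08 ± 0.0502% of the reads in peaks in the labelled input libraries of CON and 4.00 ± 0.0509% in its labelled IP libraries (SD, n = 3), and 5.06 ± 0.0457% and 3.96 ± 0.0221% in OAA.

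What limits these values is the annotation and the labels. A span in genome coordinates does not say which exons held the reads, and 71 peaks lie mostly outside the transcript they are listed with. Which libraries hold the antibody part is not settled by labels and codes, so the sign of a ratio is not read as enrichment.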
